A study of Mus musculus with 36 samples.

Results

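Of the 23141 genes measured in the livers of mice lacking dermatopontin (Dpt) and of their littermates, 8 are described here: Capg, Cotl1, Cyth4, Arl11, Cd300a, Cysltr2, Tnfrsf14 and Nxpe4. They were picked by symbol from genes that read higher in knockout (KO) than in wild-type (WT) livers after injury with carbon tetrachloride (CCl4). Each gene's value is the mean log2 signal of the probe sets annotated to its symbol alone, and the 8 genes have 73 such probe sets, with 4 for Arl11 at the least and 14 for Capg at the most. The differences between KO and WT are therefore given as a description, with no test. The response to CCl4 within a genotype was tested over all genes, but it shares the CCl4 libraries with the comparison that chose the genes. That choice favours high values in KO CCl4 libraries and low values in WT CCl4 libraries.

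The 36 libraries fall into 4 groups by label: 9 of KO livers after CCl4, 9 of WT livers after CCl4, 10 of KO livers after olive oil (named KO_control in the labels) and 8 of WT livers after olive oil (WT_control). All animals are labelled as C57BL/6 females of 10 to 12 weeks, and the KO animals as null for Dpt, with no further word on the allele. CCl4, which hepatocytes turn into a toxic radical, or oil alone was given subcutaneously for 8 weeks, with 3 doses of 0.1 ml/kg in each week. The solution held 2% CCl4 in week 1, 4% in week 2, 5% in week 3, 6% in week 4 and 8% in the remaining weeks, and the livers were collected 24 hours after dosing ended. Per the labels, WT animals are littermates of the KO animals. The labels do not say whether each library came from its own animal, so p-values measure the spread between these libraries.

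Repeated CCl4 injury fills the liver with monocytes and macrophages that clear dead hepatocytes and shape the scar. Myeloid cells move and engulf debris by remodelling actin, a task of capping and filament-binding proteins such as Capg and Cotl1, and by switching small ARF-type GTPases, on which cytohesins such as Cyth4 act. Their surface receptors set how strongly they respond, some by inhibition, as Cd300a does, and others by sensing lipid mediators or members of the tumour necrosis factor family, as Cysltr2 and Tnfrsf14 do.

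Dpt, read as a check of the labels, lay between 3.00 and 3.86 (log2 signal) in KO CCl4 libraries and between 7.48 and 10.12 in 8 of 9 WT CCl4 libraries. It lay between 3.07 and 3.87 in 9 of 10 KO oil libraries and between 5.59 and 6.48 in WT oil libraries. The library labelled WT_CCl4 1 read 3.18 and the library labelled KO_control 10 read 7.40, both against their labels, and each was kept in its labelled group. Pericentral hepatocyte genes averaged 8.75 in WT_CCl4 1, against 5.80 to 7.81 in the other WT CCl4 libraries, and 7.00 in KO_control 10, against 8.38 to 8.91 in the other KO oil libraries. Periportal hepatocyte signal was lowest in KO_CCl4 5 (5.79, with adipocyte markers at 8.19) and WT_CCl4 3 (5.90, with skeletal muscle markers at 10.08). In all, 7 libraries carried markers of other tissues: KO_control 10, KO_CCl4 5 and WT_CCl4 3, 4, 5, 8 and 9. Most of the 7 are WT CCl4 libraries, so these markers do not fall evenly on KO and WT after CCl4. Their part in the differences was not tested. Y-linked genes were expressed in 6 oil libraries against their labelled sex. Counts over the 8 genes are given with and without such libraries.

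CCl4 raised all 8 genes in KO livers and 4 of them, Capg, Cotl1, Cyth4 and Arl11, in WT livers. Of all genes, 13.4% were called higher after CCl4 in KO livers and 13.2% in WT livers, a call being an adjusted p under 0.05 over all genes. The choice of genes, which favours high KO and low WT values after CCl4, favours a greater count in KO than in WT. The median log2 difference of the 8 genes, CCl4 minus oil, was 1.11 in KO and 0.56 in WT livers, beside a median of -0.04 over all genes in either genotype (a log2 difference of 1 is a 2-fold difference). Without the libraries labelled KO_control 10 and WT_CCl4 1, 8 genes were called in KO (15.3% of all genes) and 5 in WT (14.9%), Nxpe4 being the fifth. Without the 10 libraries that stand apart (both of these, KO_CCl4 5, WT_CCl4 3 and the 6 oil libraries with Y-linked genes), the counts were 8 and 4, beside 15% and 13.4% of all genes. Without the 7 libraries with markers of other tissues they were 8 (16.1% of all genes) and 4 (9.13%), with medians of 1.12 in KO and 0.36 in WT. After CCl4, the KO libraries overlapped the KO oil libraries for all 8 genes (47 of all genes, 0.203%, did not overlap), and WT libraries were clear of the WT oil libraries for Capg, Cotl1 and Cyth4 (2.79% of all genes). Without KO_control 10 and WT_CCl4 1 the overlap was gone for 6 genes in KO, all but Cysltr2 and Tnfrsf14 (5% of all genes), and for Arl11 too in WT (5.41%). In whole liver, more cells of a type and more RNA per cell cannot be told apart.

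**Figure D1:**
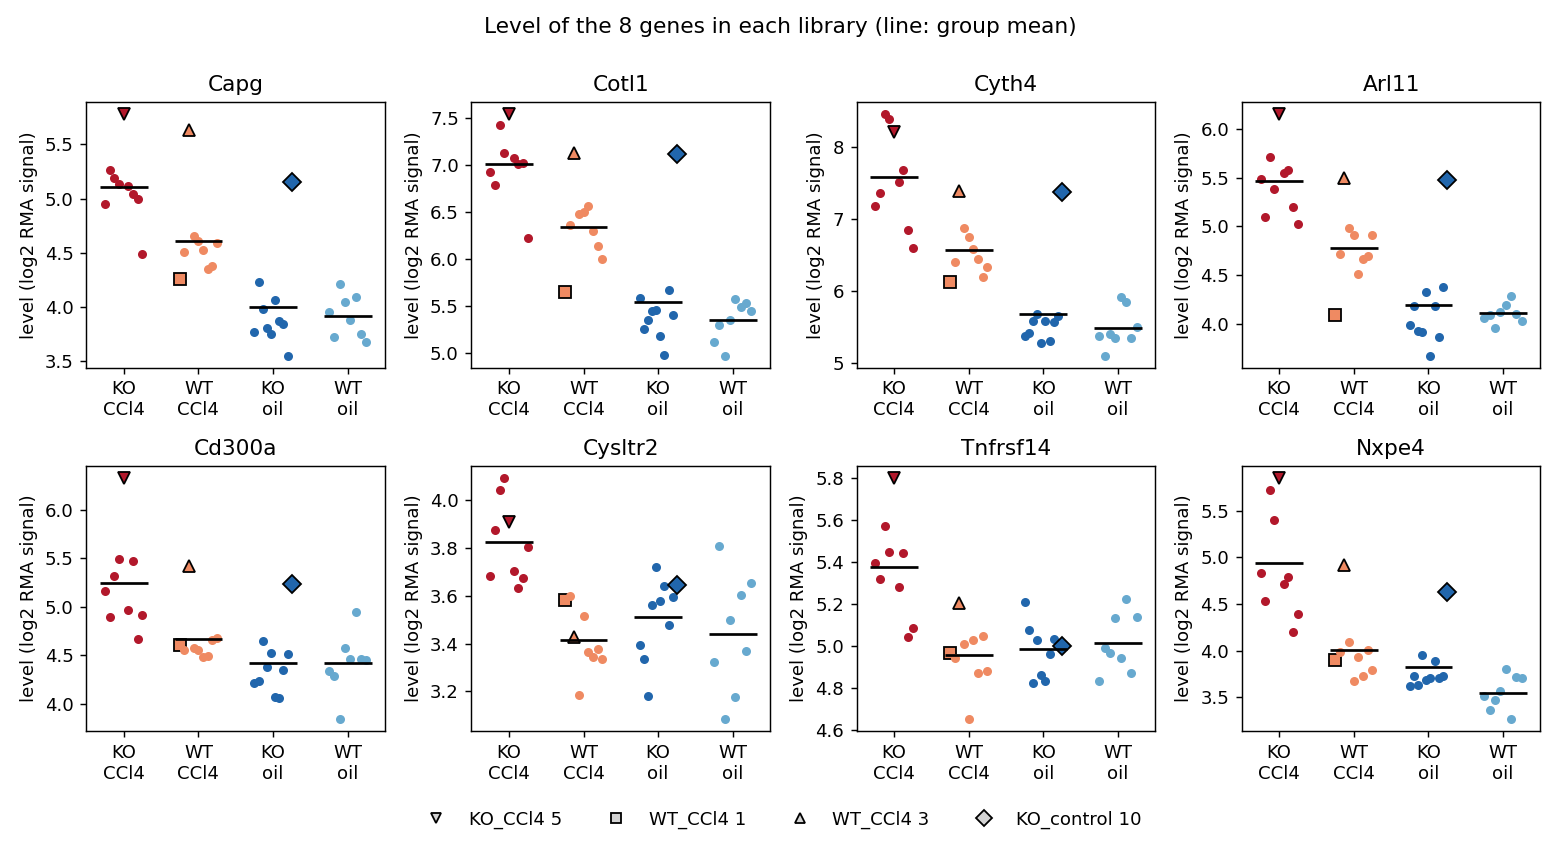
Level of each of the 8 genes (log2 RMA signal, vertical axis) in every library of the 4 groups (horizontal axis), with the group mean as a line. Triangles, squares and diamonds mark 4 libraries. They are KO_control 10 and WT_CCl4 1, whose Dpt goes against the label, and WT_CCl4 3 and KO_CCl4 5, with the lowest periportal hepatocyte signal. KO_control 10 lies far above the other KO oil libraries for 6 genes, and for Cysltr2 no KO CCl4 library (lowest 3.63) reaches down to the WT CCl4 libraries (highest 3.60).

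Capg, the macrophage capping protein of the gelsolin family that closes the growing end of actin filaments, read 4.49 at the lowest, 5.11 at the median and 5.78 at the highest in KO CCl4 livers, against 4.26, 4.53 and 5.63 in WT CCl4 livers. After oil it read 3.55, 3.86 and 5.16 in KO livers and 3.68, 3.92 and 4.21 in WT livers. The highest values of the first 3 groups belong to KO_CCl4 5, WT_CCl4 3 and KO_control 10, and the lowest KO CCl4 value, from KO_CCl4 9, lay below the WT CCl4 median. All 9 WT CCl4 libraries lay above all 8 WT oil libraries, while KO_control 10 overlapped the KO CCl4 libraries. Capg rose by 1.11 ± 0.163 in KO (log2 difference ± SE, 9 CCl4 against 10 oil libraries, adjusted p = 5.42e-06) and by 0.70 ± 0.172 in WT (9 against 8, adjusted p = 0.00343).

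Cotl1 encodes coactosin-like protein, a filament-binding protein with an ADF homology domain that in human leukocytes also binds 5-lipoxygenase, the enzyme that starts leukotriene synthesis. It read 6.22, 7.02 and 7.54 (lowest, median and highest log2 signal) in KO CCl4 livers, against 5.65, 6.36 and 7.12 in WT CCl4 livers. KO oil livers read 4.98, 5.43 and 7.11, and WT oil livers 4.97, 5.40 and 5.57. KO_CCl4 5, WT_CCl4 3 and KO_control 10 were again the highest of their groups and KO_CCl4 9 and WT_CCl4 1 the lowest, and WT CCl4 and WT oil libraries did not overlap. Cotl1 rose by 1.47 ± 0.190 in KO (adjusted p = 8.32e-07) and by 1.00 ± 0.200 in WT (adjusted p = 0.000532).

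Other actin genes did not share one pattern. Of the gelsolin family, 1 of 6 genes was called higher after CCl4 in KO and in WT, and it was Gsn itself (1.32 in KO, adjusted p = 0.00675, and 1.26 in WT, adjusted p = 0.0152). Of 9 genes of the ADF homology family, 3 were called higher in KO and 6 in WT, with Dbn1 (0.45 in KO, 0.57 in WT) and Twf2 (0.74 and 0.94) in both. All 14 measured genes of the list of actin assembly in leukocytes were called higher in KO and 13 in WT, such as Tmsb4x, which sequesters actin monomers (1.30 and 0.97), and the myosin Myo1f (2.03 and 1.44). KO minus WT after CCl4, as a description, had a median of 0.01 over the gelsolin family, -0.01 over the ADF homology family and 0.32 over the actin assembly list, against 0.50 for Capg and 0.67 for Cotl1. Capg and Cotl1 were chosen on this comparison, which favours their values over those of the lists.

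Cyth4, a cytohesin that loads GTP onto ARF proteins and is made mainly in blood cells, had the greatest response to CCl4 of the 8 genes in KO and in WT livers by the mean of probe sets. By the brightest probe set of each gene, Capg (2.40 in KO and 1.92 in WT) lay above Cyth4 (2.14 and 1.51). Cyth4 read 6.60, 7.51 and 8.46 (lowest, median and highest) in KO CCl4 livers, against 6.12, 6.44 and 7.38 in WT CCl4 livers. The oil values were 5.28, 5.57 and 7.37 in KO livers and 5.10, 5.39 and 5.92 in WT livers. The KO CCl4 libraries were spread widely, up to 8.21, 8.39 and 8.46 in KO_CCl4 5, 4 and 3, and 5 lay above the highest WT CCl4 library, while KO_control 10 stood at the level of WT_CCl4 3. Cyth4 rose by 1.90 ± 0.229 in KO (adjusted p = 3.12e-07) and by 1.08 ± 0.242 in WT (adjusted p = 0.00144), and without KO_control 10 and WT_CCl4 1 by 2.09 and 1.14. Of the other 10 cytohesin and ARF genes, 3 were called higher in KO and in WT, namely Cyth3 (0.85 and 0.78), Cytip, a cytohesin partner of leukocytes (1.06 and 0.89), and Arf4 (0.36 and 0.38), while Cyth1 and Cyth2 were not called in either.

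Arl11 encodes an ARF-like GTPase described in mouse macrophages. It read 5.03, 5.49 and 6.15 (lowest, median and highest) in KO CCl4 livers, against 4.09, 4.72 and 5.50 in WT CCl4 livers. After oil it read 3.68, 4.09 and 5.47 in KO livers and 3.97, 4.10 and 4.29 in WT livers. Only WT_CCl4 1 of the WT CCl4 libraries reached down to the WT oil libraries, and without KO_CCl4 5 and WT_CCl4 3 all 8 KO CCl4 libraries lay above all WT CCl4 libraries. Arl11 rose by 1.27 ± 0.165 in KO (adjusted p = 9.68e-07) and by 0.67 ± 0.175 in WT (adjusted p = 0.00539). None of the 5 other ARF-like genes measured (of 16 listed) was called by limma in either genotype. At an unadjusted p under 0.05 there was 1 in KO, Arl15 (-0.19, adjusted p = 0.134), and 0 in WT.

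Cd300a, an inhibitory receptor of myeloid cells that binds phospholipids exposed on dying cells, read 4.66, 5.16 and 6.33 (lowest, median and highest) in KO CCl4 livers, against 4.48, 4.58 and 5.42 in WT CCl4 livers. After oil it read 4.06, 4.37 and 5.23 in KO livers and 3.84, 4.45 and 4.95 in WT livers. Apart from WT_CCl4 3 the WT CCl4 libraries lay between 4.48 and 4.68, inside the range of the WT oil libraries. Cd300a rose by 0.82 ± 0.164 in KO (adjusted p = 0.000286), and the WT difference of 0.25 ± 0.173 did not pass the test (adjusted p = 0.297).

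Of 6 other genes of the CD300 family, which share a cluster of paired activating and inhibitory receptors, 4 were called higher after CCl4 in KO and 1 in WT. The 4 were Cd300e (1.83 in KO and 0.15 in WT), Cd300ld (1.19 and 0.63), Cd300lb (1.16 and 0.78, the one called in WT) and Cd300lf (0.94 and 0.48). All 6 read higher in KO than in WT after CCl4, from 0.09 for Cd300c to 1.68 for Cd300e, and limma called none of these differences (4 had an unadjusted p under 0.05, and the lowest adjusted p was 0.0914 for Cd300e). Of all 23141 genes, limma called 8 higher and 4 lower in that comparison. Of receptors with inhibitory motifs and the phosphatases they recruit, 11 of 13 genes were called higher in KO and 8 in WT, among them Clec12a (1.70 and 1.28) and Sirpa (1.66 and 1.26), the receptor of the signal that protects cells from being engulfed.

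Cysltr2 encodes the second receptor for cysteinyl leukotrienes, lipid mediators that contract smooth muscle and open vessels. It read 3.63, 3.81 and 4.10 (lowest, median and highest) in KO CCl4 livers, against 3.18, 3.38 and 3.60 in WT CCl4 livers. After oil it read 3.18, 3.57 and 3.72 in KO livers and 3.08, 3.43 and 3.81 in WT livers. It was the only one of the 8 whose KO and WT libraries did not overlap after CCl4, as held for 3 of all genes (0.013%), and the choice of genes used that comparison. Cysltr2 rose by 0.31 ± 0.0854 in KO (adjusted p = 0.00656) and differed by -0.02 ± 0.0904 in WT (adjusted p = 0.862). Its signal was low throughout: the median gene averaged 4.21, and Y-linked genes, which female livers lack, averaged 2.42 to 2.80 in KO CCl4 and 2.34 to 2.72 in WT CCl4 libraries.

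Of 15 other leukotriene pathway genes, 5 were called higher after CCl4 in KO and in WT. They were Pla2g4a, which frees arachidonic acid (1.16 in KO and 0.70 in WT), Alox5ap, which hands it to 5-lipoxygenase (1.30 and 0.95), the receptor Cysltr1 (1.05 and 0.95), and the dipeptidases Dpep1 (1.30 and 1.33) and Dpep2 (1.38 and 1.31). The synthase Ltc4s, which makes the first cysteinyl leukotriene, was not called (0.41 in KO, adjusted p = 0.286, and 0.33 in WT, adjusted p = 0.395). KO minus WT after CCl4 was 0.41 for Cysltr2 and 0.35 ± 0.245 for Cysltr1, which was not called (adjusted p = 0.755). The choice of genes favours a high value for Cysltr2 here.

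Tnfrsf14, the receptor also named HVEM that binds LIGHT (Tnfsf14), Btla and Cd160, read 5.04, 5.40 and 5.80 (lowest, median and highest) in KO CCl4 livers, against 4.65, 4.97 and 5.21 in WT CCl4 livers. After oil it read 4.82, 5.00 and 5.21 in KO livers and 4.83, 4.98 and 5.22 in WT livers. Both oil groups and the WT CCl4 group shared nearly one range, and 7 of 9 KO CCl4 libraries lay above all of it. KO_control 10 was not at the end of its group for this gene. Tnfrsf14 rose by 0.39 ± 0.0799 in KO (adjusted p = 0.000363) and differed by -0.06 ± 0.0845 in WT (adjusted p = 0.649).

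Of the 10 other genes of the LIGHT system, 4 were called higher in KO and 4 in WT, with the adaptors Traf3 (0.56 and 0.51) and Traf2 (0.30 and 0.25) in both. The tumour necrosis factor receptors Tnfrsf1b (0.59) and Tnfrsf1a (0.25) were called in KO, and Btla (0.92) and lymphotoxin beta, Ltb (0.81), in WT. Btla and Ltb were spread widely over the WT CCl4 libraries, with standard deviations of 1.13 and 0.98, against 0.55 and 0.35 over KO CCl4 libraries. LIGHT itself, Tnfsf14, was not called (0.18 in KO, adjusted p = 0.132, and -0.15 in WT, adjusted p = 0.231).

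Nxpe4, a member of the neurexophilin and PC-esterase domain family, read 4.20, 4.79 and 5.86 (lowest, median and highest) in KO CCl4 livers, against 3.67, 3.93 and 4.92 in WT CCl4 livers. In oil livers these were 3.62, 3.72 and 4.63 in KO and 3.26, 3.54 and 3.80 in WT. All 10 KO oil libraries lay above the WT oil median, and 3 KO CCl4 libraries lay above the highest WT CCl4 library, WT_CCl4 3. Without KO_CCl4 5 and WT_CCl4 3, the KO and WT CCl4 libraries of Nxpe4 did not overlap, as for Arl11 and Cysltr2 and for 16 of all genes (0.0691%). Nxpe4 rose by 1.11 ± 0.174 in KO (adjusted p = 1.24e-05), and the WT difference of 0.45 ± 0.184 missed the threshold (adjusted p = 0.0677). It passed without KO_control 10 and WT_CCl4 1 (0.47, adjusted p = 0.0494). Of its relatives, Nxpe2 moved the other way, falling by 2.16 in KO and by 2.09 in WT. Nxpe3 rose by 0.57 in KO (adjusted p = 0.00522) and, like Nxpe4, was above 0 but not called in WT (0.33, adjusted p = 0.129).

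**Figure D2:**
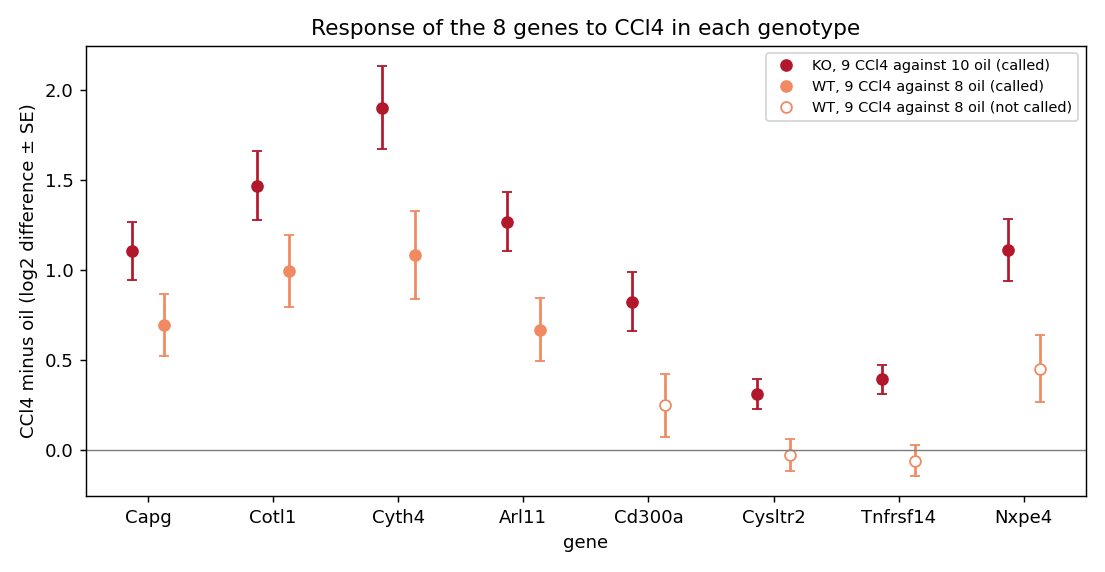
CCl4 minus oil for each gene (log2 difference, vertical axis, with the standard error as a bar) in KO and in WT livers. Filled points passed an adjusted p of 0.05: 8 in KO and 4 in WT. In KO the values run from 0.31 (Cysltr2) to 1.90 (Cyth4), and in WT from -0.06 (Tnfrsf14) to 1.08 (Cyth4).

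Set side by side, KO minus WT after CCl4 was above 0 for all 8 genes, as the choice of genes fixes. It was 1.02 ± 0.235 for Cyth4, 0.94 ± 0.178 for Nxpe4, 0.68 ± 0.169 for Arl11 and 0.67 ± 0.194 for Cotl1 (log2 difference ± SE, 9 against 9 libraries). Cd300a stood at 0.58 ± 0.168, Capg at 0.50 ± 0.167, Tnfrsf14 at 0.42 ± 0.0819 and Cysltr2 at 0.41 ± 0.0877. The values lay between 0.42 (Tnfrsf14) and 0.96 (Cyth4) without the libraries labelled KO_control 10 and WT_CCl4 1, and between 0.41 and 0.99 without the 10 libraries that stand apart. Without the 7 libraries with markers of other tissues they spread further, between 0.34 and 1.12.

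After oil, KO minus WT had a median of 0.08 over the 8 genes, with values between -0.03 (Tnfrsf14) and 0.28 (Nxpe4). Without KO_control 10 and WT_CCl4 1 the median was -0.01, and 4 of 8 values were above 0. The CCl4 response in KO minus that in WT, which holds the comparison that chose the genes, was between 0.34 (Cysltr2) and 0.82 (Cyth4). The interaction was called by limma for 0 of 23141 genes (1354 had an unadjusted p under 0.05), and so the responses of Cd300a, Cysltr2, Tnfrsf14 and Nxpe4, which were called in KO alone, were not shown to differ between genotypes.

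**Figure D3:**
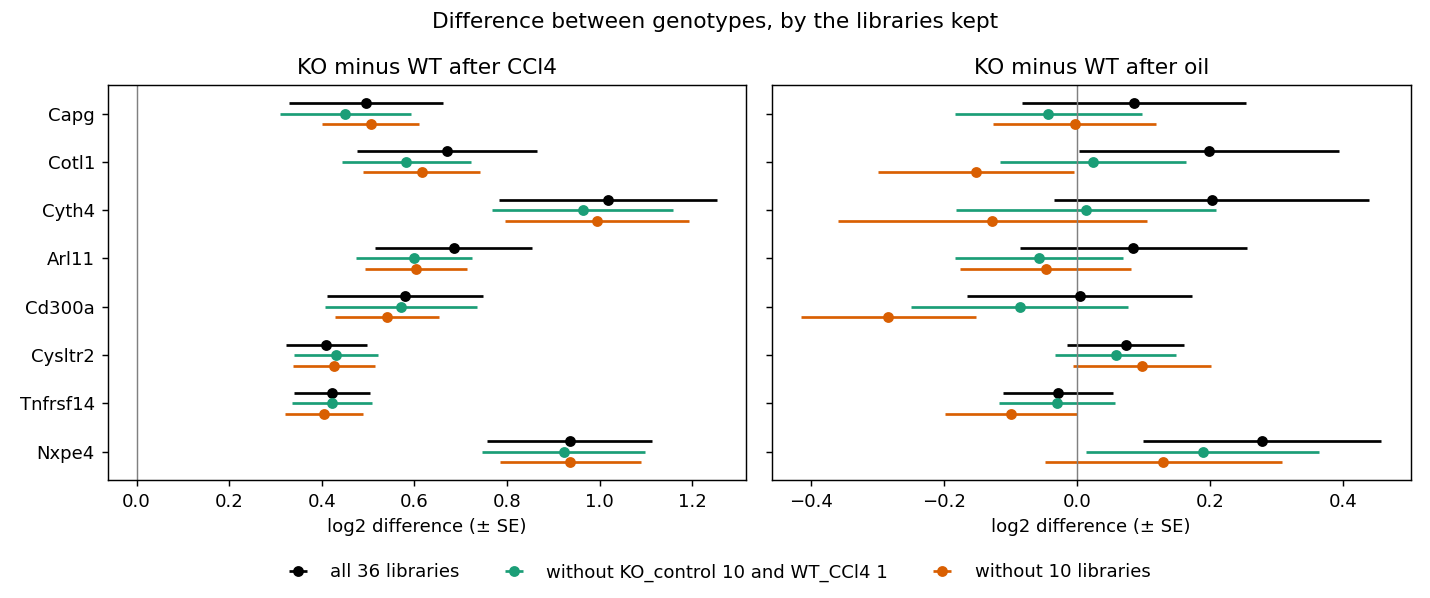
KO minus WT after CCl4 (left) and after oil (right) for each gene (log2 difference on the horizontal axis, with the standard error as a bar), with all 36 libraries, without KO_control 10 and WT_CCl4 1, and without 10 libraries. After CCl4 the values stay between 0.41 and 1.02 over these 3 sets. After oil they lie around 0, from -0.28 to 0.28.

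Single probe sets showed how evenly each gene's signal carried these differences. After CCl4, 71 of the 73 probe sets read higher in KO than in WT, and the exceptions were 1 each of Capg and Cd300a. The choice of genes favours that count, since the same probe sets make up each gene's mean, and no share over all probe sets was counted. CCl4 minus oil was above 0 for 65 probe sets in KO and 49 in WT, with 10 of 10 for Tnfrsf14 in KO and 4 of 10 in WT, and 6 of 7 for Cysltr2 in KO and 1 of 7 in WT. For 3 genes the brightest probe set differed little between genotypes. That of Arl11 averaged 5.57 and differed by 0.10 between KO and WT after CCl4, that of Cysltr2 averaged 6.17 and differed by 0.06, and that of Tnfrsf14 averaged 10.57 and differed by 0.10. The brightest Cysltr2 probe set also read lower after CCl4 than after oil in KO livers (-0.44), so the rise of Cysltr2 comes from its dimmer probe sets. The brightest Cotl1 probe set averaged 7.62 and differed by 0.24 between genotypes after CCl4, against 0.67 for the mean of its probe sets. With that probe set the rise of Cotl1 in WT was 0.43 and was not called by limma (adjusted p = 0.0572).

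**Figure D4:**
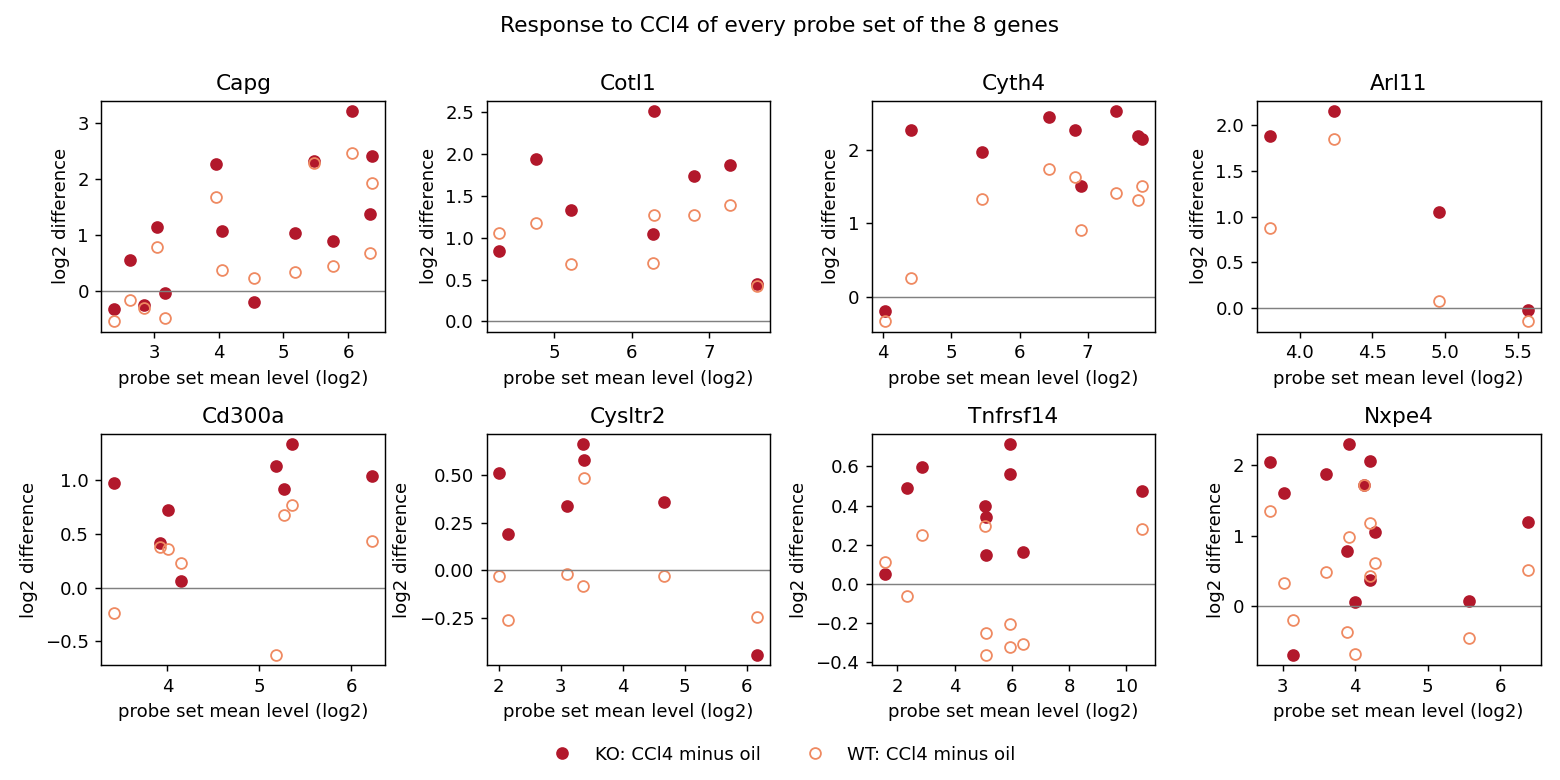
CCl4 minus oil (log2 difference, vertical axis) of every probe set of the 8 genes against the probe set's mean level over all libraries (log2, horizontal axis), with filled points for KO and open points for WT livers. Most points lie above 0 in KO, whereas the brightest probe sets of Arl11 (5.57) and Cysltr2 (6.17) lie at or below it.

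Whether the 8 genes follow myeloid markers was read from deviations within labelled groups, which hold none of the differences between those groups' means. KO_control 10 and WT_CCl4 1 read Dpt against their labels, so their deviations may hold differences between genotypes or treatments. The mean of the 8 genes went with all 18 pan-leukocyte markers at a median Pearson r of 0.85 and with 20 monocyte and macrophage markers at 0.81, over 36 libraries that share hybridisation and normalization. Other genes had a median of -0.05, and 11.2% of them an r over 0.5. Without KO_control 10, WT_CCl4 1, WT_CCl4 3 and KO_CCl4 5, chosen after seeing the data, the medians were 0.68 and 0.61, beside -0.01 and 2.94% for other genes. T and NK cell markers (0.35 with all libraries, 0.13 without the 4) and B and plasma cell markers (0.61 and 0.07) followed less, and Kupffer cell markers had medians of -0.23 with all libraries and 0.39 without the 4. Mesothelial markers (0.68 and -0.25) and adipocyte markers (0.53 and -0.16) went with the 8 genes over all libraries but not without those 4.

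The 8 genes also went with each other, at a median r of 0.65 over 28 pairs and of 0.37 without the 4 libraries. Cyth4 and Cotl1 were the closest pair (0.84). Cysltr2 stood outside, at -0.01 (Capg) to 0.27 (Cd300a) with the other genes, and at a median of 0.11 with the pan-leukocyte markers, none of which passed 0.5. Tnfrsf14 came between, at 0.22 to 0.64. With the monocyte and macrophage markers over all libraries, 6 genes had a median r between 0.67 (Cd300a) and 0.77 (Cyth4), Tnfrsf14 had 0.37 and Cysltr2 0.12. Without the 4 libraries the medians were 0.62 for Cyth4, 0.58 for Nxpe4, 0.49 for Cotl1, 0.42 for Arl11 and 0.37 for Cd300a, and 0.31 for Tnfrsf14, 0.24 for Capg and 0.08 for Cysltr2. Within groups, Cyth4 and Nxpe4 thus followed monocyte and macrophage markers in either set of libraries. All 8 genes followed them less without the 4 libraries, and Capg fell most. For Cysltr2, which followed them in neither set, the name of myeloid genes is not borne out. The mean of the 8 genes went with pan-leukocyte markers at least as closely, so the likeness is not particular to the monocyte and macrophage list.

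**Figure D5:**
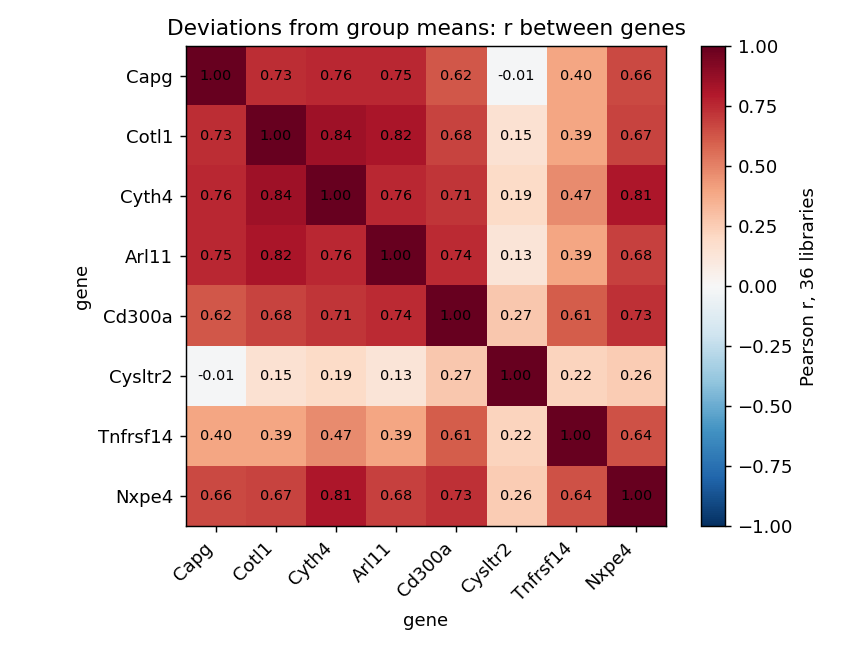
Pearson r between the 8 genes (both axes) of deviations from the 4 group means over 36 libraries, printed in each cell and shaded from -1 to 1. Capg, Cotl1, Cyth4, Arl11, Cd300a and Nxpe4 form a block at 0.62 to 0.84, and the Cysltr2 row stays at or under 0.27.

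The genes most like the mean of the 8 over all libraries were Abcg1, a cholesterol exporter of macrophages (r = 0.95), Tm6sf1 (0.94), Selplg, the selectin ligand of leukocytes (0.93), Nckap1l, the blood-cell subunit of the complex that drives actin branching (0.93), and Sh3bgrl3 (0.92). Without the 4 libraries the first 4 kept r between 0.86 and 0.88 and ranks between 1 and 5, and Sh3bgrl3 had rank 47. Of single genes, the closest to Cyth4 was Selplg (0.94), to Cotl1 the pan-leukocyte marker Arhgdib (0.93), to Arl11 Svep1 (0.92), to Nxpe4 Rassf4 (0.91), to Cd300a the lipid transfer protein Pltp (0.87) and to Capg Emilin2 (0.86). Each was weaker without the 4 libraries, least for Cyth4 (0.90) and most for Capg (0.44). Tnfrsf14 was closest to Slc28a2 (0.69, and 0.55 without the 4), and Cysltr2 to Oser1 (0.60 and 0.61).

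Leukocyte markers read higher in the same comparison as the 8 genes. In KO minus WT after CCl4, limma called 8 of all 23141 genes higher and 4 lower. An unadjusted p under 0.05 held for 1950 genes, and the median over all genes was 0.001. After CCl4, the 18 pan-leukocyte markers lay in KO between a mean of 5.89 and 7.41, against 5.45 and 7.27 in WT, and KO minus WT was above 0 for all 18 (median 0.56, none called, 13 with an unadjusted p under 0.05). Monocyte and macrophage markers gave 20 of 20 above 0 (median 0.65, with Fcer1g alone called, at 1.12), with mean levels of 6.54 to 8.05 in KO and 5.98 to 7.22 in WT. Neutrophil markers gave 12 of 12 (median 0.62, none called, 7 with an unadjusted p under 0.05), whereas T and NK cell markers gave 6 of 14 (median -0.02) and B and plasma cell markers 4 of 10 (median -0.17). CCl4 against oil was called higher for 18 of 18 pan-leukocyte and 20 of 20 monocyte and macrophage markers in KO, and for 17 and 16 in WT. The part of these markers in the differences of the 8 genes was not tested.

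The promoter windows of 7 of the 8 genes could be read from RefSeq (mouse GRCm38.p6, 250 bases before the start, Cotl1 not analysed here). They were searched on both strands for GAGGAA, the core bound by the myeloid regulator PU.1, and GGAAGT, a core of the ETS family to which PU.1 belongs. GAGGAA was in 1 of 7 windows, against 23.3% of 32851 mouse promoters, and GGAAGT in 3 of 7 (Capg, Cyth4 and Tnfrsf14), against 19.7%. Shown are Cyth4, with a GGAAGT match at -27, Cd300a, with the GAGGAA match at -39 (reverse strand, so TTCCTC as printed), and Cysltr2, which has neither. Arl11 and Nxpe4 have neither as well. Capitals mark the matches, each sequence runs 5′ to 3′ on the gene's strand, and a match is a string of letters, not a shown binding site. The windows of Cd300a, Capg, Tnfrsf14, Arl11 and Nxpe4 precede a start that lies inside the gene's annotated span. Those of Cyth4 and Cysltr2 adjoin the end of the span.
Cyth4 (plus strand, chr15:78596797-78597046): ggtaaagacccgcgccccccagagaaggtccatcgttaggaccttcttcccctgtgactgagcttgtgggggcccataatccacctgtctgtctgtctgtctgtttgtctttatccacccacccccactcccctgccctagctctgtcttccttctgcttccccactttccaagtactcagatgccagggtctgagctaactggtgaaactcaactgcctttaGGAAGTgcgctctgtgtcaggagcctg
Cd300a (plus strand, chr11:114889791-114890040): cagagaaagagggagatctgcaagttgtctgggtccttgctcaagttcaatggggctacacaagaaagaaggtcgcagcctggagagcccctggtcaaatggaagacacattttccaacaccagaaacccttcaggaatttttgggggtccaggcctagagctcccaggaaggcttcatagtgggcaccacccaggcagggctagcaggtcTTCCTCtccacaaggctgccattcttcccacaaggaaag
Cysltr2 (minus strand, chr14:73049115-73049364): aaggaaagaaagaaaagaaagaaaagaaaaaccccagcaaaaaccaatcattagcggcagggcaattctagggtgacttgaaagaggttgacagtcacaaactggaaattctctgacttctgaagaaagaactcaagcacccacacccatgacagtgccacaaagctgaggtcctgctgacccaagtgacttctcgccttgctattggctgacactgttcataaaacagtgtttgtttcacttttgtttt
Of 4 other motifs, TGANTCA (AP-1) and TGTGGT (RUNX) were in none of the 7 windows (6.75% and 14.0% of promoters). The IRF motif was in that of Tnfrsf14 (2.98%), and TTGCNNAA (C/EBP) was in those of Arl11 and Cd300a (9.56%). Spi1, which encodes PU.1, rose with CCl4 by 1.08 in KO (adjusted p = 6.87e-06) and by 0.74 in WT (adjusted p = 0.00178).

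By annotation the 8 genes are protein-coding and lie on 7 chromosomes, Arl11 and Cysltr2 both on chromosome 14. Arl11 spans chr14:61306290-61311937 and Cysltr2 chr14:73025672-73049114 in GRCm38.p6. Capg lies at chr6:72538282-72562983, Cotl1 at chr8:119809214-119840579, Cyth4 at chr15:78597047-78622019 and Cd300a at chr11:114889152-114901946. Tnfrsf14 lies at chr4:154918487-154928620 and Nxpe4 at chr9:48162004-48400025, and none shares chromosome 1 with Dpt.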

How the data were processed

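Whole-liver RNA was hybridised to Affymetrix mouse exon-level arrays (1 array a library, 36 libraries). The deposited log2 values were made with RMA, per the submitters' processing notes, and RMA's between-array scaling makes each value relative to the other arrays; no genome build is given in the sources used here. Of 269479 probe sets, 233753 had 1 gene symbol, 5139 several and 30587 none; 2208 symbols were updated through RefSeq, and the probe sets of a symbol were averaged to 23141 genes (median 8 probe sets). The average weighs all probe sets of a gene alike, dim ones included, which can change its log2 differences. A second table's 36 columns matched no sample's labels and were not used. Array medians lay between 4.11 and 4.38, and no 2 arrays were identical. How many arrays a group has sets how precise its values are.

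One limma model (limma 3.58.1, R 4.3.3) with a mean for each of the 4 groups was fitted over all genes, with Benjamini-Hochberg adjustment over 23141 genes and a threshold of 0.05. On simulated data, CCl4 against oil in KO recovered 71.5% of genes changed 1.5-fold and 89.5% of those changed 2-fold, and in WT 67.5% and 94%. Of the calls, 5.3% and 7.73% were false in KO and 7.53% and 2.08% in WT. The simulation had independent normal noise for each gene and 200 changed genes. In these data genes go together and some libraries stand apart, so the rates need not hold for them. The members and gene lists were chosen with earlier results of these data known. Besides the 8 genes and Dpt, the text names list genes (up to 3 a list by the smallest adjusted p in KO, families of the 8 genes in full) and the genes most like the 8 by Pearson r of deviations from group means; list genes beyond these (Fcer1g, the single call of its list) were named after their values were seen. Same-numbered libraries were not paired (51 pairs, median r 0.01, 14 over 0.1). Alternatives left out libraries that stand apart and each library in turn, centred the arrays, used the median or the brightest probe set of a gene, kept the brighter genes, fitted only the groups compared, and added the replicate number as a block.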

Additional observations from a re-analysis of the deposited data

Results flagged for a closer look

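Single libraries lay far from the rest of their group in 10 of 32 sets of values (8 genes in 4 groups), where chance flags about 1 in 20 groups. The sets are not independent, since the same libraries recur over genes that go together. The library labelled KO_control 10, whose Dpt goes against its label, accounts for 6 of the 10: it read 5.16 for Capg (next highest KO oil library 4.23), 7.11 for Cotl1 (5.67), 7.37 for Cyth4 (5.68), 5.47 for Arl11 (4.38), 5.23 for Cd300a (4.65) and 4.63 for Nxpe4 (3.95). Its monocyte and macrophage markers averaged 7.49 and its pericentral hepatocyte genes 7.00, the highest and the lowest of the KO oil libraries. WT_CCl4 3 read 5.63 for Capg, 5.42 for Cd300a and 4.92 for Nxpe4, above the other WT CCl4 libraries, with skeletal muscle markers at 10.08 and the lowest periportal hepatocyte signal of its group. KO_CCl4 5 read 6.33 for Cd300a, above the other KO CCl4 libraries (at most 5.49), with adipocyte markers at 8.19. The part of these markers in the values was not tested.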

How the results depend on the processing

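Over the 11 alternatives named above, all 8 genes stayed called after CCl4 in KO except with the brightest probe set of each gene (5, and 2 in WT, beside 9.88% and 9.56% of all genes), with the median of the probe sets, where Tnfrsf14 was not called (0.33, adjusted p = 0.147; 11.2% of all genes were), and with only the 11571 brighter genes (23.1% called), which leave out Cysltr2 and Nxpe4. With the brightest probe set CCl4 minus oil was -0.018 in KO and -0.14 in WT for Arl11, -0.44 in KO for Cysltr2 and 0.28 in WT for Tnfrsf14, each with its sign turned. Differences near 0 in WT also turned: Cd300a to -0.0065 without the 10 libraries that stand apart, and Cysltr2 to 0.033 without the 7 libraries with other tissues' markers and to 0.051 with the median of the probe sets. Leaving out each library in turn gave -0.076 to 0.028 for Cysltr2 in WT, 8 genes called in KO (12.1% to 15.2% of all genes) and 4 to 5 in WT (11.5% to 14.6%), and a median KO minus WT after CCl4 of 0.52 to 0.72 (0.42 to 0.67 over the other alternatives). Nxpe4 in WT passed under 4 alternatives, such as the fit of the WT groups alone (0.45, adjusted p = 0.0263), and without KO_CCl4 5 (adjusted p = 0.041). The cause of these changes was not tested. The median r among the 8 genes was 0.39 without those 7 libraries, 0.34 without the 10, 0.37 without the 4 at the ends of their groups and 0.22 with the brightest probe set. Centring arrays on their medians moved the median of all genes to -0.13 in KO and in WT and the split of calls to 2499 higher and 4729 lower in KO (3098 and 2289 as deposited) and to 2357 and 5379 in WT (3046 and 2617), with 8 and 4 of the 8 genes still called. The numbers do not pair the libraries, and with the replicate number as a block, which takes KO_control 10 out of the comparison since no other library has its number, 8 genes were called in KO (of 3494 in all) and 5 in WT (of 3159), with medians of 0.62 for KO minus WT after CCl4 and 0.03 after oil.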

Other observations

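Genes of scar-associated macrophages, a state described in fibrotic liver, rose with CCl4 in both genotypes. Of 12 such genes, 10 were called higher after CCl4 in KO (median 2.03) and 10 in WT (median 1.71), among them Gpnmb, a membrane glycoprotein of lipid-laden macrophages (4.53 in KO and 4.54 in WT), and the elastase Mmp12 (3.62 and 3.66). KO minus WT after CCl4 was above 0 for all 12 (median 0.43), and 1 was called, the integrin Itgax (1.45, adjusted p = 0.0414). Of all 23141 genes, 8 were called higher in that comparison. Kupffer cell genes were mostly not called: 3 of 10 were higher after CCl4 in KO, namely the scavenger receptor Marco (2.25), Cd5l (1.01) and Folr2 (0.74), and in WT 1 was higher (Marco, 2.31) and 1 lower. Dendritic cell genes gave 2 of 12 called higher in KO and 3 in WT. Whether these lists differ from the 8 genes was not tested.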
